A study of Mus musculus with 29 samples.

Results

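The ribosome-bound mRNA of differentiating mouse muscle cells was compared between polysomes on membranes and polysomes free in the cytosol, in 4 libraries of the 29 in the series. The cells were C2C12, an established mouse myoblast line that leaves the cell cycle and fuses into multinucleated myotubes when serum is lowered. All 4 libraries were labelled as differentiating C2C12 cells in 2% horse serum, and 2 were of the membrane polysome fraction and 2 of the cytosol polysome fraction. They were taken by their column names and form part of 16 libraries in which membrane and cytosol extracts were further divided on a gradient. Further sets served for comparison: 4 polysome libraries of proliferating C2C12 cells in 10% fetal bovine serum, and 4 monosome libraries labelled as differentiating. The medium label of those monosome libraries names 10% fetal bovine serum and not horse serum. Each library was made by 3'READS+, which sequences the last stretch of an mRNA before its poly(A) tail and so counts mRNAs per poly(A) site. Whether the 2 replicates of a group were separate cultures is not in the labels, and the p-values reflect the spread among the libraries alone, which may be technical.

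Polysomes are mRNAs carrying several ribosomes, and a monosome is an mRNA with a single one. A nascent protein that begins with a signal peptide or a transmembrane segment is recognised by the signal recognition particle, which brings the ribosome and its mRNA to the translocon of the endoplasmic reticulum (ER). Secreted proteins, lysosomal enzymes and most proteins of the ER, Golgi and plasma membrane are made there. Proteins of the cytosol, nucleus and mitochondria are mostly made on free ribosomes, and so are tail-anchored proteins, whose only membrane segment emerges from the ribosome after translation has ended. In a muscle cell the membrane route also supplies the sarcoplasmic reticulum, the sarcolemma and the proteins of cell fusion.

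The deposited table gave 7351349 and 6809583 reads in membrane libraries 1 and 2, and 5832467 and 5884858 in cytosol libraries 1 and 2. Reads lay at 56869 sites of 14147 gene symbols, 99.9% of them on the main strand of their gene. Levels are given in CPM, the read count relative to the scaled library total, for membrane library 1, membrane library 2, cytosol library 1 and cytosol library 2 in that order. Across genes, log2 CPM correlated at r = 0.936 between the membrane libraries and at 0.941 between the cytosol libraries, against 0.883 and 0.884 between fractions of the same replicate number. The libraries of replicate number 1 held more muscle mRNA. Summed over 7 muscle differentiation markers, the levels were 30909, 6139, 41359 and 6843 CPM, against 49.5 to 264 CPM in the polysomes of proliferating cells. Among defining markers, Myog, the transcription factor myogenin, was at 414, 91.8, 414 and 94.0 CPM. Of the markers of undifferentiated cells or fibroblasts, Id3, an inhibitor of differentiation, was at 8.44, 144, 12.8 and 198 CPM and Myf5 at 3.87, 21.7, 4.41 and 36.4 CPM, whereas Col1a1, a collagen chain, was higher in replicate 1, at 149, 52.9, 6.42 and 2.33 CPM. Summed over 4 proliferation markers, the levels were 102 to 194 CPM, against 683 to 1131 CPM in proliferating polysomes, and Pax7, a satellite cell marker, was at 0 in the 4 libraries. The difference in muscle markers between replicate numbers lies within both fractions, and the fits here hold no term for it unless said. In bulk fractions, fewer cells that express a gene and less of its mRNA per cell cannot be told apart.

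Of 11176 genes tested with edgeR's quasi-likelihood test, 1465 (13.1%) were higher in membrane polysomes at an adjusted p below 0.05 and 225 (2.01%) were lower. Counts of called genes are edgeR's unless DESeq2 is named. Genes called higher had a median log2 difference of 2.88, which became 2.85 when the 19 of them with no cytosol read were set at a bound of 3 reads per library. Of these, 1206 differed by a log2 of at least 2 and 650 by at least 3. Genes called lower had a median of -1.16, with 194 at a log2 of -1 or below and only 2 at -2 or below. The median over all genes tested was -0.08. Genes called higher held 22.8% and 25.8% of the scaled reads of the membrane libraries and 2.61% and 3.39% of those of the cytosol libraries. Without regard to a test, both membrane libraries lay above both cytosol libraries for 3148 genes (28.2%) and below them for 2902 (26.0%). DESeq2's test called 1576 genes higher and 661 lower, so the share of higher genes among the calls was 86.7% with edgeR and 70.5% with DESeq2. The lower count depended on each library: it was 56 and 87 without cytosol library 1 or 2, and 71 and 34 without membrane library 1 or 2. Without cytosol library 1 the higher count was 947.

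The 30 lists of genes, grouped by where their proteins go, separated by destination. In the plot of the lists, most of those for the ER, Golgi, lysosome, plasma membrane and extracellular matrix lie to the right of 0, and most of those for the cytosol, nucleus and mitochondria lie near 0 or below. Exceptions were tail-anchored membrane proteins (median -0.78), ER mRNA receptors and signal recognition particle genes (-0.10), COPI and COPII coats (0.06) and 6 nuclear noncoding RNAs (0.84). The lists held 294 of the 1465 higher genes, and 1171 were in none of them. A gene enters the test if it is well counted in 1 gradient group, so a list's tested members are not its whole membership.

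**Figure D1:**
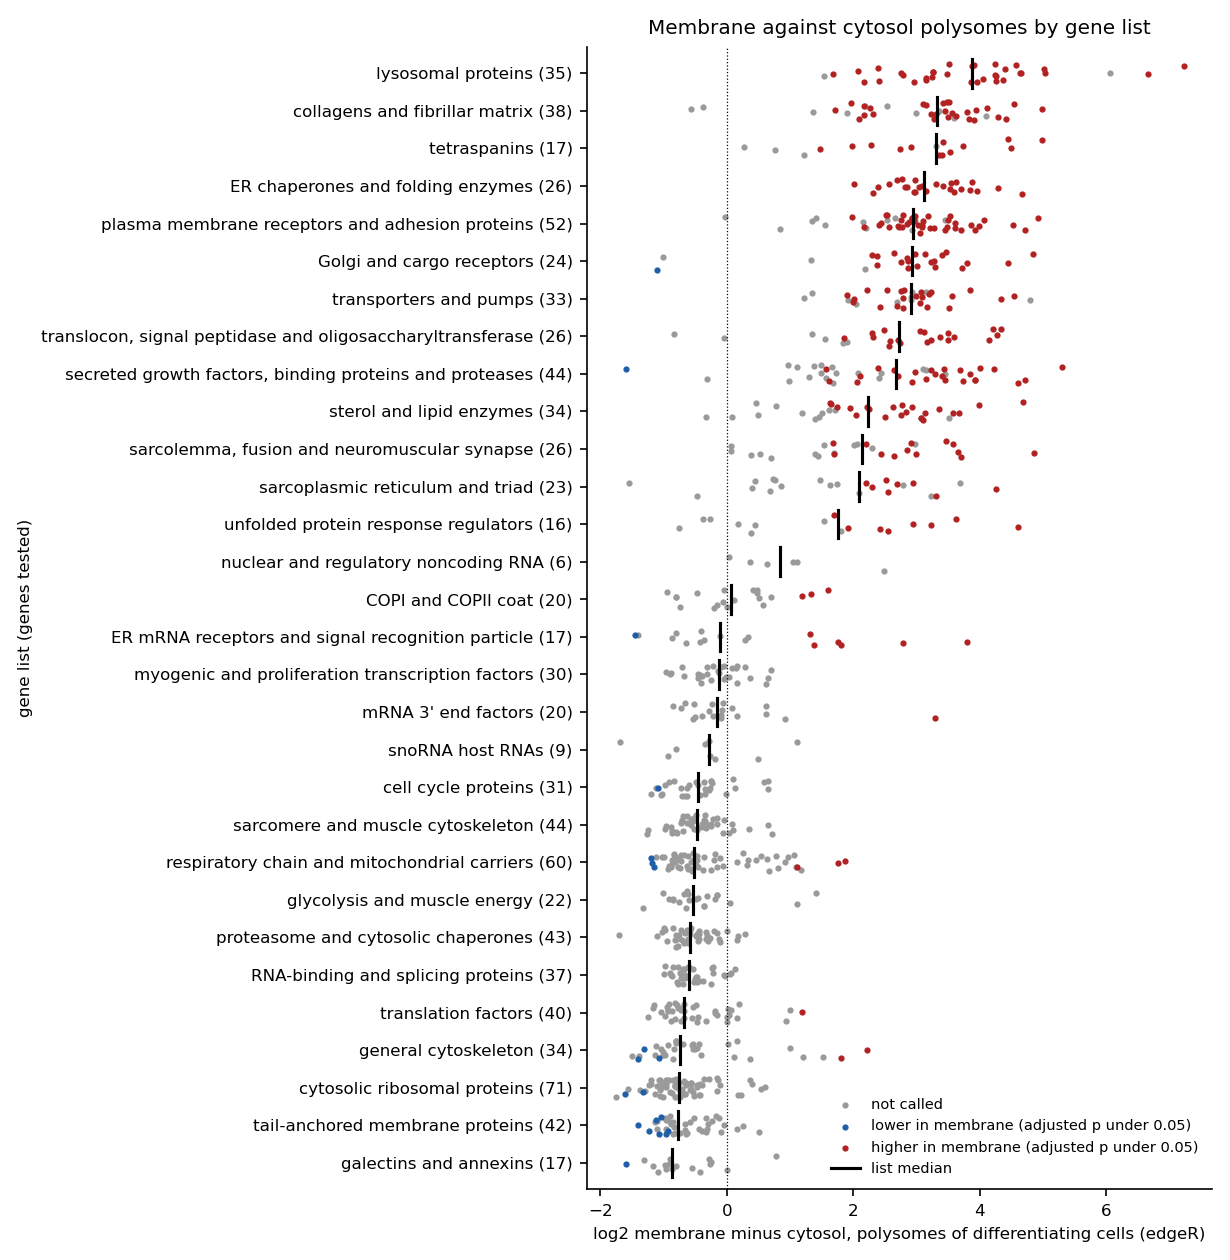
Each point is 1 gene at its log2 difference between membrane and cytosol polysomes of differentiating cells (horizontal axis), in rows by gene list with the number of genes tested, and a black bar marks the list median. Red points are higher and blue points lower in membrane polysomes by edgeR's test; lysosomal proteins have the highest median, 3.88, and galectins and annexins the lowest, -0.87.

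Folding enzymes and chaperones of the ER lumen were higher in membrane polysomes for 26 of 26 genes, with a median log2 of 3.12. Calr, the calcium-binding lectin chaperone calreticulin, was at 815, 660, 49.8 and 45.3 CPM. Both membrane libraries stood far above both cytosol libraries, a log2 difference of 3.96 ± 0.41 (SE; edgeR adjusted p = 3.03e-05). Pdia6, a protein disulfide isomerase, was at 207, 166, 5.42 and 9.15 CPM, a log2 difference of 4.67 ± 0.39 (edgeR adjusted p = 1.52e-05). Manf, a secreted ER stress protein, was at 1027, 975, 65.4 and 107 CPM, with a difference of 3.54 ± 0.38. Hspa5, the ER Hsp70 chaperone BiP, was at 416, 215, 38.3 and 32.6 CPM, again with no overlap between fractions (3.15 ± 0.47).

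In the translocon, signal peptidase and oligosaccharyltransferase list, 20 of 26 tested genes were higher and none was lower, with a median of 2.72. Ssr2, a subunit of the translocon-associated complex, was at 1498, 1163, 77.7 and 65.4 CPM (4.22 ± 0.38, edgeR adjusted p = 1.85e-05). Rpn1, a subunit of the oligosaccharyltransferase that adds N-glycans, was at 292, 180, 11.6 and 11.6 CPM (4.34 ± 0.37). The channel subunit Sec61a1 was at 174, 125, 11.2 and 23.1 CPM, so that its lowest membrane value was several times its highest cytosol value (3.11 ± 0.43). Its partner Sec61b, a small tail-anchored protein, was at 22, 122, 28.1 and 229 CPM. For Sec61b the fractions overlapped, replicate 2 was the higher one in both, and the cytosol library was the higher one for either replicate number. The test gave -0.83 ± 0.99 (edgeR adjusted p = 0.646). Without cytosol library 2, which leaves the replicate numbers unbalanced between fractions, the sign of the Sec61b value turned, to 1.36.

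For cargo receptors and Golgi proteins, 20 of 24 tested genes were higher and 1, Bet1, was lower (median 2.93). Surf4, an ER cargo receptor, was at 1132, 862, 121 and 126 CPM (3.01 ± 0.34, edgeR adjusted p = 4.4e-05). Tmed10, a p24 cargo receptor, was at 130, 161, 9.03 and 11.8 CPM (3.79 ± 0.38). Bet1, a tail-anchored SNARE of ER to Golgi transport, lay the other way at 107, 104, 221 and 236 CPM (-1.11 ± 0.30, edgeR adjusted p = 0.0212). This call was lost without any one of the 4 libraries, with adjusted p-values of 0.0745 to 0.119. The soluble coats that shape the same vesicles did not follow the cargo receptors, and their median was 0.06. Over all genes tested 13.1% were higher and 2.01% lower. Of 20 COPI and COPII genes tested, 3 (15.0%) were higher, a share near that of all genes, and none was lower. The 3 were the small GTPases Arf5 (1.19 ± 0.35), Sar1b (1.33) and Sar1a, at 56.3, 53.0, 18.7 and 17.3 CPM, and without any one of the 4 libraries only 1 coat gene was called. The coat subunits Copz1 at 287, 187, 513 and 401 CPM and Cope at 239, 179, 415 and 314 CPM were numerically lower in membrane polysomes and not called (edgeR adjusted p = 0.135 and 0.177).

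Among collagens and other fibrillar matrix proteins, 28 of 38 tested genes of 46 listed were higher and none lower, with a median of 3.33. Col3a1, the chain of type III collagen, was at 3724, 4138, 126 and 122 CPM (4.99 ± 0.55, edgeR adjusted p = 4.05e-05). Replicates were close and the fractions far apart. Sparc, a collagen-binding matrix glycoprotein, was at 3211, 1479, 217 and 93.8 CPM (3.92 ± 0.63). Bgn, the proteoglycan biglycan, was at 3013, 2319, 946 and 1118 CPM. Its fractions did not overlap, but its difference of 1.37 ± 0.57 was not called (edgeR adjusted p = 0.136).

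Secreted growth factors, binding proteins and proteases had 25 of 44 tested genes higher and 1 lower, with a median of 2.68. The count was 15 without cytosol library 1 and 16 without cytosol library 2. Prss23, a secreted serine protease, was at 1448, 685, 29.5 and 24.6 CPM (5.30 ± 0.43, edgeR adjusted p = 1.46e-05). Serpinf1, which encodes the secreted factor PEDF, was at 527, 434, 14.6 and 22 CPM (4.71 ± 0.47). Cst3, the protease inhibitor cystatin C, was at 840, 2361, 54.2 and 157 CPM, with higher values in replicate 2 of either fraction and no overlap between fractions (3.92 ± 0.73). The 1 lower gene was Lgals1, galectin-1, a sugar-binding protein that leaves the cell without a signal peptide. It was at 11376, 9343, 31675 and 31122 CPM (-1.60 ± 0.35, edgeR adjusted p = 0.00527), and without membrane library 2 its adjusted p was 0.0744. In the list of galectins and annexins, which share that unconventional route, Lgals1 was the only gene of 17 tested that edgeR called, DESeq2 called 3 lower, and the median was -0.87. Without membrane library 2 that list had none called lower, and without cytosol library 1 it had 2.

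Surface receptors and adhesion proteins were higher in membrane polysomes for 40 of 52 tested genes (median 2.95), tetraspanins for 13 of 17 (3.31) and transporters and pumps for 23 of 33 (2.91), with none lower. Cdh15, the muscle cadherin M-cadherin, was at 969, 851, 92.3 and 105 CPM (3.21 ± 0.47, edgeR adjusted p = 0.000297). Itgb5, an integrin beta chain, was at 347, 531, 22.3 and 29.9 CPM (4.07 ± 0.40). The tetraspanin Cd63, a marker of late endosomes and exosomes, was at 22938, 29802, 744 and 1606 CPM (4.49 ± 0.51). For each of these 3 genes the lowest membrane value was several times the highest cytosol value. Another tetraspanin, Tspan17, was at 241, 280, 189 and 118 CPM and was not called (0.76, edgeR adjusted p = 0.326). Slc44a2, a choline transporter-like protein, was at 842, 968, 60.8 and 64.7 CPM (3.85 ± 0.31, edgeR adjusted p = 1.46e-05). Over all solute carrier symbols outside the Slc25 family, 74 of 146 tested were higher and none lower, with a median of 2.18. The Slc25 carriers, which enter the inner mitochondrial membrane after synthesis in the cytosol, had 0 of 34 called by edgeR and a median of -0.21, with 4 at an unadjusted p below 0.05 and 1 called lower by DESeq2. Of 145 genes named Tmem, for transmembrane protein, 67 were higher and 1 lower, with a median of 1.77. The shares over all genes tested were 13.1% higher and 2.01% lower. The solute carrier, Slc25 and Tmem families were chosen by symbol after their values were seen.

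Lysosomal proteins had the highest median of the lists. Of 35 tested genes, 33 were higher and none lower, and the median of 3.88 became 3.48 when Gla, Man2b1 and Psap, which had no cytosol read, were set at their bound. Ctsb, the protease cathepsin B, was at 5128, 6578, 302 and 310 CPM (4.26 ± 0.36, edgeR adjusted p = 1.69e-05). Ctsd, cathepsin D, was at 6214, 2943, 315 and 170 CPM (4.24 ± 0.57). Grn, the precursor of granulins, was at 464, 619, 14 and 19.1 CPM (5.03 ± 0.45). All 3 showed membrane levels far beyond the spread between replicates. Npc2, a soluble cholesterol carrier of the lysosome, was one of the 2 not called. It was at 2324, 3094, 612 and 1251 CPM (1.54 ± 0.58, edgeR adjusted p = 0.0964).

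The V-ATPase, the proton pump that acidifies lysosomes, is built from a membrane sector, V0, and a soluble catalytic sector, V1, and its subunits divided along that line. This family was chosen by symbol after its values were seen, so its counts are a description. Over all genes tested 13.1% were higher and 2.01% lower. Of 9 tested genes for V0 and accessory subunits, 6 were higher, with a median of 2.30. Of 10 tested V1 genes edgeR called none in either direction, with a median of -0.57, 2 at an unadjusted p below 0.05 and 1 called lower by DESeq2. The accessory subunit Atp6ap1 was at 1957, 1030, 74.4 and 45.8 CPM (4.64 ± 0.48, edgeR adjusted p = 3.03e-05). The proteolipid subunit Atp6v0b was at 427, 443, 67.2 and 97.2 CPM, with no overlap (edgeR adjusted p = 0.0016). Within V0, Atp6v0d1, whose product has no membrane-spanning segment, was at 79.2, 99, 114 and 135 CPM and was not called (-0.48 ± 0.31, edgeR adjusted p = 0.347). The V1 subunits Atp6v1f at 419, 252, 760 and 610 CPM and Atp6v1g1 at 392, 259, 669 and 572 CPM were lower in both membrane libraries than in both cytosol libraries, without passing the test (edgeR adjusted p = 0.156 and 0.0638).

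**Figure D2:**
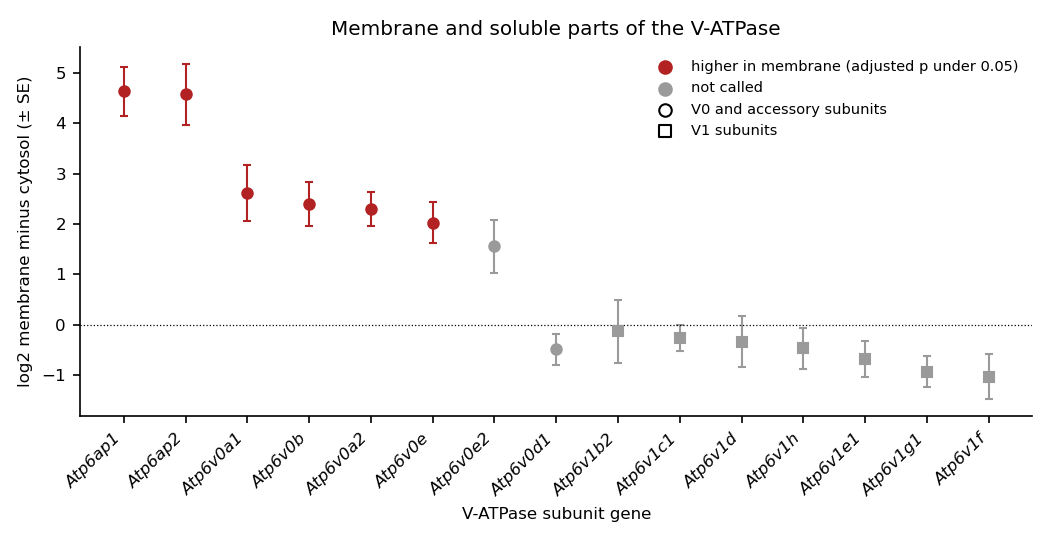
Log2 difference between membrane and cytosol polysomes (vertical axis, bars ± SE) for the 15 V-ATPase subunit genes with a mean of at least 10 CPM over the 4 libraries; circles are V0 and accessory subunits, squares are V1 subunits, and red marks genes called higher. The 6 called genes are all circles, from 2.03 for Atp6v0e to 4.64 for Atp6ap1, and every square lies below 0.

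Of 34 tested genes for sterol and lipid enzymes, 21 were higher and none lower (median 2.24), and 12 were called without cytosol library 2. Scd2, a fatty acid desaturase, was at 1428, 1141, 206 and 156 CPM, a log2 difference of 2.83 with no overlap between fractions. Srebf2 and Srebf1, regulators of sterol and lipid genes, are themselves made as ER membrane proteins. Srebf2 was at 246, 320, 36.9 and 30.1 CPM (3.08 ± 0.38, edgeR adjusted p = 0.000101) and Srebf1 at 24.2, 15.2, 1 and 2 CPM (3.67 ± 0.60).

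Regulators of the unfolded protein response split in the same way, with 8 of 16 tested genes higher and none lower by edgeR, 8 higher and 1 lower by DESeq2, and a median of 1.75. Sel1l, a membrane subunit of the ER degradation machinery, was at 187, 173, 7.02 and 7.65 CPM (4.61 ± 0.43, edgeR adjusted p = 2.11e-05). Creb3, a transcription factor anchored in the ER membrane until it is cleaved, was at 1050, 658, 304 and 222 CPM (1.70 ± 0.36, edgeR adjusted p = 0.00431), and its adjusted p was 0.0503 without membrane library 1 and 0.0646 without cytosol library 2. Atf4, a soluble transcription factor of the same response, was at 1280, 897, 1534 and 1290 CPM (-0.38 ± 0.34, edgeR adjusted p = 0.531). Xbp1, whose unspliced mRNA is processed at the ER membrane, was at 138, 105, 104 and 83.3 CPM, with a membrane value of library 2 that nearly equalled a cytosol value (0.38 ± 0.59, edgeR adjusted p = 0.741).

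The proteins by which a myotube contracts and fuses were divided between the fractions. In the sarcolemma, fusion and neuromuscular synapse list, 13 of 26 tested genes were higher and none lower (median 2.14). This count was 8 and 7 without cytosol library 1 or 2 and 7 without membrane library 1. Sgcb, the sarcoglycan of the dystrophin complex with the largest difference, was at 204, 159, 5.82 and 6.65 CPM (4.86 ± 0.38, edgeR adjusted p = 1.46e-05). Chrna1, the alpha subunit of the muscle acetylcholine receptor, was at 1100, 923, 88.1 and 80.9 CPM (3.58 ± 0.41). Both genes had close replicates.

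Tmem8c, the fusion protein myomaker, was at 1018, 299, 120 and 45.4 CPM, with replicate 1 the higher one in both fractions and no overlap between fractions. Its difference of 3.00 ± 0.71 was called (edgeR adjusted p = 0.0109), but not without membrane library 1 (0.114) or cytosol library 2 (0.103). Gm7325, the short fusion peptide myomixer, was at 593, 177, 472 and 121 CPM. For either replicate number the membrane library was the higher one, but the fractions overlapped and the numbers differed by more than the fractions did. The value of 0.38 ± 0.88 was not called (edgeR adjusted p = 0.835). Its sign turned without membrane library 1 (-0.74) and without cytosol library 2 (-0.29), fits in which the replicate numbers are unbalanced between fractions.

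Of 23 tested genes of the sarcoplasmic reticulum and triad, 8 were higher and none lower, with a median of 2.10, and 5 were called without cytosol library 2. Atp2a2, a calcium pump of the reticulum, was at 40.4, 23.6, 3.81 and 2.66 CPM (3.30 ± 0.53, edgeR adjusted p = 0.000557). Cacng1, a subunit of the muscle calcium channel, was at 1238, 553, 185 and 127 CPM (2.52 ± 0.57, edgeR adjusted p = 0.00757), and its adjusted p was 0.07 without membrane library 1 and 0.0823 without cytosol library 2. Casq2, the calcium store protein calsequestrin 2, was at 1019, 86.3, 74.6 and 11.5 CPM. Replicate 1 was far higher than replicate 2 in both fractions, the membrane library was the higher one for either number, membrane library 2 barely exceeded cytosol library 1 and the difference of 3.68 ± 1.33 was not called (edgeR adjusted p = 0.0897). Without membrane library 2 it was 4.57 with an adjusted p of 0.044. Tmem38a, a cation channel of the reticulum, was at 1703, 286, 556 and 88.2 CPM, with the membrane library higher for either replicate number and overlapping fractions (1.63 ± 1.04, edgeR adjusted p = 0.355), and its value was -0.17 without membrane library 1.

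**Figure D3:**
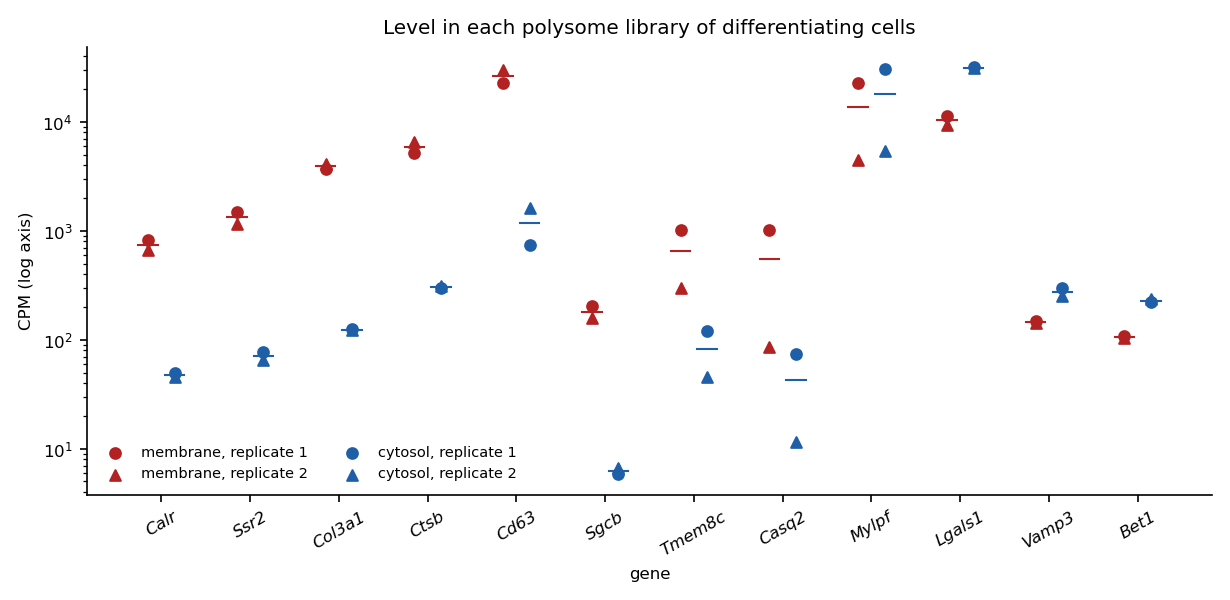
Level of 12 genes in CPM (vertical log axis) in each of the 4 polysome libraries, red for membrane and blue for cytosol, circles for replicate 1 and triangles for replicate 2, with a short line at each mean. Calr, Ssr2, Col3a1, Ctsb, Cd63 and Sgcb show fractions far apart, whereas Tmem8c, Casq2 and Mylpf differ several-fold between replicate numbers within a fraction, and Lgals1, Vamp3 and Bet1 lie higher in the cytosol.

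Contractile and other soluble muscle proteins gave no calls with edgeR. The fit held no term for the replicate number, by which muscle mRNA differed within both fractions. A lack of calls therefore does not show that the fractions were equal. With a replicate block, 9 sarcomere genes were lower and 1 higher, but the labels do not say that a number pairs libraries. Of 44 tested sarcomere genes none was called by edgeR or DESeq2, none had an unadjusted p below 0.05 with edgeR, the median was -0.47 and 38 had a negative value. Mylpf, the fast regulatory myosin light chain, was at 22813, 4448, 30683 and 5372 CPM (-0.40 ± 1.03, edgeR adjusted p = 0.851). The replicate numbers differed by more than the fractions did, and for either number the cytosol library was the higher one. In a fit with no term for the number, leaving out a library leaves the numbers unbalanced between fractions. The sign for Mylpf then turned without membrane library 2 (0.35) or cytosol library 1 (1.35). Tnnc1, slow troponin C, was at 18514, 3417, 46760 and 5285 CPM (-1.25 ± 1.15, edgeR adjusted p = 0.541) and turned without cytosol library 1, to 1.06. Myog gave -0.01 ± 1.05 with overlapping fractions (edgeR adjusted p = 0.999), and 0.71 and 1.43 without membrane library 2 or cytosol library 1. Of 30 tested myogenic and proliferation transcription factors (median -0.13), 0 were called by edgeR or DESeq2 and 0 had an unadjusted p below 0.05. Of 22 genes for glycolysis and muscle energy (median -0.54), edgeR called none, 4 had an unadjusted p below 0.05, and DESeq2 called 3 lower. Among 31 cell cycle genes 1, the replication helicase subunit Mcm5, was lower (median -0.45), and its call was lost without either membrane library or cytosol library 2 (edgeR adjusted p = 0.0929 to 0.201).

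Genes of the general cytoskeleton had a median of -0.75 over 34 tested, with 2 higher and 3 lower. Of the higher ones, Vcl, vinculin, a large protein of cell adhesions, was at 63.9, 97, 15.3 and 19.3 CPM (2.22 ± 0.45, edgeR adjusted p = 0.00347). It has no signal peptide or membrane segment, and both membrane libraries were above both cytosol libraries. Its adjusted p was 0.0508 without cytosol library 1, and 1 cytoskeletal gene was called higher without cytosol library 1 or 2. The lower ones encode small actin-binding proteins, Cfl1, Cfl2 and Tmsb4x, and each of these 3 calls was lost when some single libraries were left out. Tmsb4x, thymosin beta 4, was at 263, 215, 509 and 679 CPM (-1.31, edgeR adjusted p = 0.0276, and 0.0509 to 0.184 with a library left out).

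The translation machinery lay below 0. Of 71 tested cytosolic ribosomal protein genes, 65 had a negative value, 40 had both membrane libraries below both cytosol libraries and 2, Rpl27a and Rpl13, were called lower, with a median of -0.75. Over all genes tested the fractions lay apart in that direction for 26.0% and 2.01% were called, so the share called is near that of all genes. Rpl27a was at 308, 316, 720 and 834 CPM (-1.32 ± 0.35, edgeR adjusted p = 0.0194), and no ribosomal protein gene was called without any one library. Ribosomal protein mRNAs have near-identical copies in the genome, so the division of reads among them is uncertain. Translation factors had a median of -0.68 with 1 of 40 higher: Eif3a, a large subunit of initiation factor eIF3, at 41.7, 54.8, 22.1 and 20.1 CPM (1.19, edgeR adjusted p = 0.0324, and 0.126 to 0.179 without cytosol library 1 or 2 or membrane library 2). No gene was called by edgeR among 43 tested genes for the proteasome and cytosolic chaperones (median -0.58), 37 for RNA-binding and splicing proteins (-0.60), 9 snoRNA host RNAs (-0.28) and 6 nuclear noncoding RNAs (0.84). At an unadjusted p below 0.05 these lists had 6, 7, 1 and 1 genes, and DESeq2 called as many. Of 20 mRNA 3' end factors 1 was higher, Cstf2t, a paralogue of a cleavage stimulation factor, at 244, 199, 26.1 and 19.3 CPM (3.29 ± 0.63, edgeR adjusted p = 0.00242).

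The list of respiratory chain subunits and mitochondrial carriers, which are imported into mitochondria, had a median of -0.51 over 60 tested with 3 higher and 3 lower. Sdha, the flavoprotein of complex II, was at 297, 278, 101 and 69.2 CPM (1.76 ± 0.35, edgeR adjusted p = 0.00281). Uqcrc1, a core protein of complex III, was at 98.5, 115, 24.7 and 33.4 CPM (1.87, edgeR adjusted p = 0.0192), and Ndufs1, the largest complex I subunit, at 23.8, 23.9, 10 and 12 CPM (1.11, 0.0461). The lower ones were the small subunits Atp5e, Atp5k and Ndufa2, with log2 values of -1.20, -1.18 and -1.16. Only the Sdha call held without each library in turn: the Uqcrc1 adjusted p was 0.0694 to 0.151 without membrane library 2 or either cytosol library, and the other calls were lost without 3 or all of the 4 libraries.

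Tail-anchored proteins end in the same membranes as many of the genes above but are inserted after translation. Unlike most other membrane lists, theirs had a negative median, near those of cytosolic ribosomal proteins (-0.75) and the general cytoskeleton (-0.75). Of 42 tested, none was higher and 7 were lower (Tomm6, Cyb5, Vamp4, Ube2j1, Sec22b, Stx8 and Vamp3), 39 had a negative value, and the median was -0.78. In proliferating polysomes 12 were lower, against 5.17% of all genes tested, and the median was -0.93. Vamp3, a SNARE of recycling endosomes, was at 149, 141, 299 and 253 CPM (-0.92 ± 0.26, edgeR adjusted p = 0.025). Sec22b, a SNARE between ER and Golgi, was at 227, 150, 420 and 354 CPM (-1.04 ± 0.29, edgeR adjusted p = 0.0281). Ube2j1, a ubiquitin-conjugating enzyme anchored in the ER membrane, was at 36.7, 36.9, 76.3 and 78.7 CPM (-1.07 ± 0.28, edgeR adjusted p = 0.0171). In 28 of the 42 genes both membrane libraries lay below both cytosol libraries. Over all genes tested this held for 26.0%, and 2.01% were called lower. The calls were few with fewer libraries: 1, 0, 1 and 1 tail-anchored gene was lower without cytosol library 1, cytosol library 2, membrane library 1 or membrane library 2, and 0 when only the 4 libraries were fitted. DESeq2 called 16 lower.

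The list of ER mRNA receptors and signal recognition particle genes was divided as well. Of 17 tested, 6 were higher and 1 lower, with a median of -0.10. Ckap4, an ER sheet protein that binds microtubules, was at 42.3, 40.5, 2.21 and 3.66 CPM (3.80 ± 0.56, edgeR adjusted p = 0.000322). Mtdh, an ER membrane protein that binds RNA, was at 281, 286, 35.5 and 46.9 CPM (2.78 ± 0.46). The 2 subunits of the ER receptor for tail-anchored proteins were both higher: Wrb at 101, 86.1, 27.1 and 26.1 CPM (1.81, edgeR adjusted p = 0.00255) and Caml at 12.9, 17.7, 2.81 and 6.16 CPM (1.75, 0.0283). Their soluble partner Asna1, the ATPase that carries tail-anchored proteins to them, was lower at 26.6, 30, 102 and 51.9 CPM (-1.45 ± 0.40, edgeR adjusted p = 0.0265). The Caml call was lost without membrane library 2 (0.143) or cytosol library 1 (0.223), and the Asna1 call without either membrane library or cytosol library 1 (0.101 to 0.278). The list had 3 higher genes without cytosol library 1 or membrane library 2, and its lower gene was not called without cytosol library 1 or either membrane library.

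Among genes with a mean of at least 10 CPM over the 4 libraries and fractions that did not overlap, the largest called difference was that of Igsf8, an immunoglobulin superfamily membrane protein, at 48.4, 44, 1 and 0.166 CPM, so its log2 of 6.32 ± 0.87 rests on few cytosol reads (edgeR adjusted p = 0.000205). Pigt, a subunit of the transamidase that attaches GPI anchors in the ER, was at 151, 114, 3.21 and 4.49 CPM (5.09 ± 0.35, edgeR adjusted p = 1.34e-05). Mfge8, a secreted phosphatidylserine-binding protein, was at 1834, 1326, 39.9 and 55.9 CPM (5.04 ± 0.50). H2-K1, a class I histocompatibility antigen at 32.4, 33.2, 0.803 and 0.499 CPM, belongs to a family of near-identical genes among which reads may be divided. At the other end, Ube2l3, a soluble ubiquitin-conjugating enzyme, was at 147, 96.9, 480 and 534 CPM (-2.06 ± 0.35, edgeR adjusted p = 0.000874). Rbx1, the small RING subunit of cullin ubiquitin ligases, was at 1561, 1459, 4255 and 4556 CPM (-1.54 ± 0.33, edgeR adjusted p = 0.00504). Polr2j, a small subunit of RNA polymerase II, was at 191, 185, 480 and 579 CPM (-1.50 ± 0.27, edgeR adjusted p = 0.00133). All of these were named from genes whose fractions did not overlap, so that trait was set by the choice. The 3 lower calls held without each library in turn. By symbol, 4 of 30 tested Ube2 genes were lower (median -0.78) and 8 of 73 mitochondrial ribosomal proteins named Mrp (-0.70), with none higher in either family. Over all genes tested 2.01% were lower and 13.1% higher. Both families were chosen after their values were seen. Their medians were near those of cytosolic ribosomal proteins (-0.75) and translation factors (-0.68).

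Whether the division differed from that of proliferating cells was asked with the same test on the difference of the 2 log2 values, and no gene passed. With edgeR 0 of 11176 genes (0.0%) were called in either direction, the lowest adjusted p was 0.840, and 293 had an unadjusted p below 0.05, of which 274 had the smaller ratio in differentiating cells. DESeq2 called 0, with 234 at that unadjusted level. In proliferating polysomes 2122 genes (19%) were higher in the membrane fraction and 578 (5.17%) lower. Of the 1465 higher genes here, 1406 were also higher there, which is 96.0% of this list and 66.3% of the other. Of the 225 lower genes, 165 were also lower there, 73.3% and 28.5% of the lists, and 0 genes were called in opposite directions. The log2 differences of the 2 cell states, which share no library, correlated at r = 0.867 across 11176 genes, which are not independent replicates.

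The values were spread more widely in proliferating cells, with an SD across genes of 1.66 against 1.39. DESeq2's size factors moved the median of the between-state difference from -0.11 to 0.03, a shift of 0.137, so small offsets between states depend on the scaling. Fkbp7, an ER prolyl isomerase, had the lowest p. It was at 55.9, 58.5, 3.61 and 5.82 CPM here and at 45.3, 47.9, 0.505 and 0.321 CPM in the same order in proliferating cells. The membrane values of the states were near each other and the cytosol values here lay above those there, a difference of -3.16 ± 0.61 between log2 values of 3.59 and 6.74 (edgeR adjusted p = 0.840). The cytosol values in proliferating cells were very low, so the 6.74 and the difference rest on few reads. Esyt1, a tether between ER and plasma membrane, gave 3.91 here and 5.74 there. Sgca, alpha-sarcoglycan, was among the few on the other side, at 292, 114, 60.2 and 27.9 CPM here and 9.46, 6.24, 15.3 and 5.3 CPM there. The log2 values were 2.21 and -0.38, a difference of 2.59 ± 0.95 that did not pass the test, and the levels in proliferating cells were low.

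**Figure D4:**
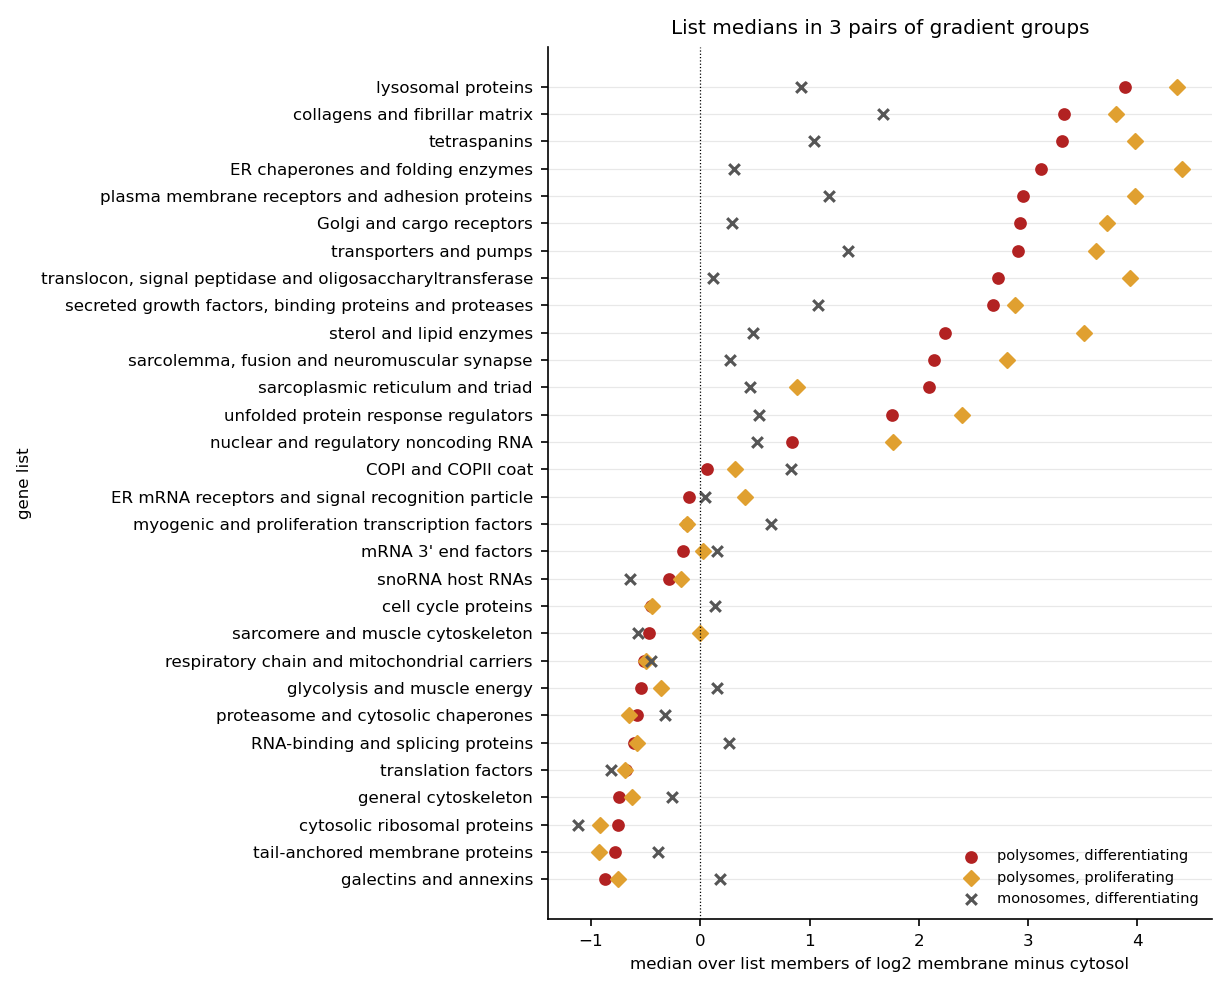
Median log2 difference between membrane and cytosol (horizontal axis) of each gene list in polysomes of differentiating cells (red circles), polysomes of proliferating cells (orange diamonds) and monosomes of differentiating cells (grey crosses). For ER chaperones the 3 medians are 3.12, 4.41 and 0.31, and for cytosolic ribosomal proteins -0.75, -0.91 and -1.12.

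Monosomes of the cells labelled as differentiating gave a different picture for many ER genes. The membrane to cytosol difference was higher in polysomes than in monosomes for 406 genes (3.63%) and lower for 52 (0.465%) by edgeR's test of the difference itself. DESeq2 called 658 and 132. Without 1 library the higher count was 177 to 292, with 177 without cytosol polysome library 1, 259 without cytosol polysome library 2, and 211 and 209 without membrane monosome library 1 or 2, and the lower count was 7 to 26 over all 8 libraries. ER chaperones had a median of 0.31 in monosomes and 18 of 26 differed from their polysome value. Translocon genes had a median of 0.12 with 16 of 26 differing, and lysosomal genes 0.92 with 15 of 35. Of collagens and matrix genes, with a monosome median of 1.67, 5 of 38 differed.

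Sgcb was nearly even in monosomes, at 75.3 and 76.7 CPM in the membrane libraries and 90.4 and 93.1 CPM in the cytosol libraries. Its polysome difference exceeded its monosome difference by 5.13 ± 0.49 (edgeR adjusted p = 0.000769). Manf had monosome levels of 770, 793, 937 and 933 CPM in the same order, a difference from polysomes of 3.80 ± 0.51 (edgeR adjusted p = 0.00176). For Rpn1 the monosome levels were 127, 85.2, 124 and 100 CPM, with overlapping fractions. Col3a1 kept its division, at 5906, 6257, 257 and 326 CPM in monosomes, and its polysome value exceeded the monosome value by 0.61 ± 0.66, which did not pass the test (edgeR adjusted p = 0.77). Rab6a, a small GTPase of the Golgi, went the other way, with 37.0, 46.3, 15.0 and 15.4 CPM in monosomes and log2 values of 1.45 there and -0.67 in polysomes (edgeR adjusted p = 0.0093 for the difference). The medium named in the labels changes together with the gradient fraction here, and the 2 cannot be told apart.

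Many genes end their mRNAs at more than one poly(A) site, and the choice sets the length of the 3' untranslated region or the last exon. To ask whether the fractions differed in that choice, the 2 most used sites were compared in 4553 genes, at distances of 25 to 9871 nt (median 677 nt). None was called by edgeR (0.0%), with a lowest adjusted p of 0.106, and 124 (2.72%) had an unadjusted p below 0.05. Of these 95 had more distal use on membranes and 29 less. DESeq2 called 2, Prnp and Slc35b2. Over all pairs the median log2 difference in distal over proximal use was 0.14, and 2665 (58.5%) were above 0. Both membrane libraries lay above both cytosol libraries in 874 pairs (19.2%) and below in 497 (10.9%). Library medians of log2 distal over proximal reads were 0.585 and 0.737 in membrane and 0.415 and 0.585 in cytosol polysomes, a difference of 0.16. With 2 libraries against 2 an exact permutation test, which gave p = 0.667, cannot go below 0.33 and so cannot decide.

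The shift towards distal sites was larger for pairs farther apart. Pairs up to 200 nt had a median of 0.05 with 52.7% above 0, those of 200 to 500 nt a median near 0 with 50.1%, pairs of 1000 to 2000 nt 0.18 with 61.2%, and pairs of 4000 to 10000 nt 0.52 with 73.4%. Proliferating polysomes gave -0.01, 0.01, 0.22 and 0.48 for these bins. Across pairs, Spearman's rho with distance was 0.177, a description over sites that share the same 4 libraries. Over all pairs, the difference in site use did not correlate with the gene's own division (r = 0.001). The median was 0.07 in 682 pairs of genes higher on membranes and 0.15 in 3790 pairs of genes not called. Pairs at an unadjusted p below 0.05 were relatively more frequent in the higher genes. There 28 had more and 10 less distal use, against 67 and 19 in genes not called. The 81 pairs of lower genes had 0.

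Prnp, the GPI-anchored prion protein, had its sites on chr2 at 131757045 and 131764165 (mm9, plus strand), 7120 nt apart. The distal site took 95.5% and 98.7% of the pair's reads in membrane and 63.8% and 77.8% in cytosol libraries, where the pair had 47 and 45 reads. The fractions did not overlap, and the difference of 3.90 ± 0.74 was not called (edgeR adjusted p = 0.106). Slc35b2, a Golgi transporter of the sulfate donor, had sites at 45703004 and 45704618 on chr17 (plus strand). Its distal share was 88.6% and 81.8% against 52.1% and 42.6%, a difference of 2.75 ± 0.53 (edgeR adjusted p = 0.106). Slc38a2, an amino acid transporter, had a distal share of 81.6% and 85.6% against 40.2% and 43.9% (2.81 ± 0.76). In the opposite direction, Alg5, an enzyme of N-glycan precursor synthesis, had 18.8% and 32.2% against 38.8% and 48.5% (-1.23 ± 0.54, not called).

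Sites more than 10 kb apart formed 570 pairs, with a median of 0.64 and 397 above 0. When these were included, 4 pairs were called with more distal use on membranes and 2 with less, among them Prnp and Slc35b2. No mm9 annotation was used here, so a site in an intron or an alternative last exon cannot be told from one further along the same untranslated region. Txnrd2, a mitochondrial thioredoxin reductase, had sites at 18437905 and 18479163 on chr16 (plus strand). Its distal share was 91.9% and 83.9% in membrane and 30.3% and 23.5% in cytosol libraries (4.33 ± 0.72, edgeR adjusted p = 0.0122). Col12a1, a collagen chain, had sites at 79562712 and 79446798 on chr9 (minus strand), with a distal share of 28.0% and 44.4% against 0.521% and 3.83% (4.65 ± 0.91, edgeR adjusted p = 0.0456). In the cytosol libraries nearly all reads of the pair lay at the first site, 115914 nt before the other. Zfand3, a zinc finger protein, was the reverse, with sites at 30161900 and 30346965 on chr17 (plus strand) and a distal share of 63.1% and 82.9% against 97.7% and 98.7% (-4.38 ± 0.57, edgeR adjusted p = 0.00113). Cyhr1, with sites at 76488566 and 76476197 on chr15 (minus strand), had 43.2% and 39.9% against 84.9% and 83.4% (-2.90 ± 0.42, edgeR adjusted p = 0.00278). The fractions did not overlap for any of these 4 genes, although the membrane libraries differed for Zfand3 by more than the nearer one differed from the cytosol libraries.

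**Figure D5:**
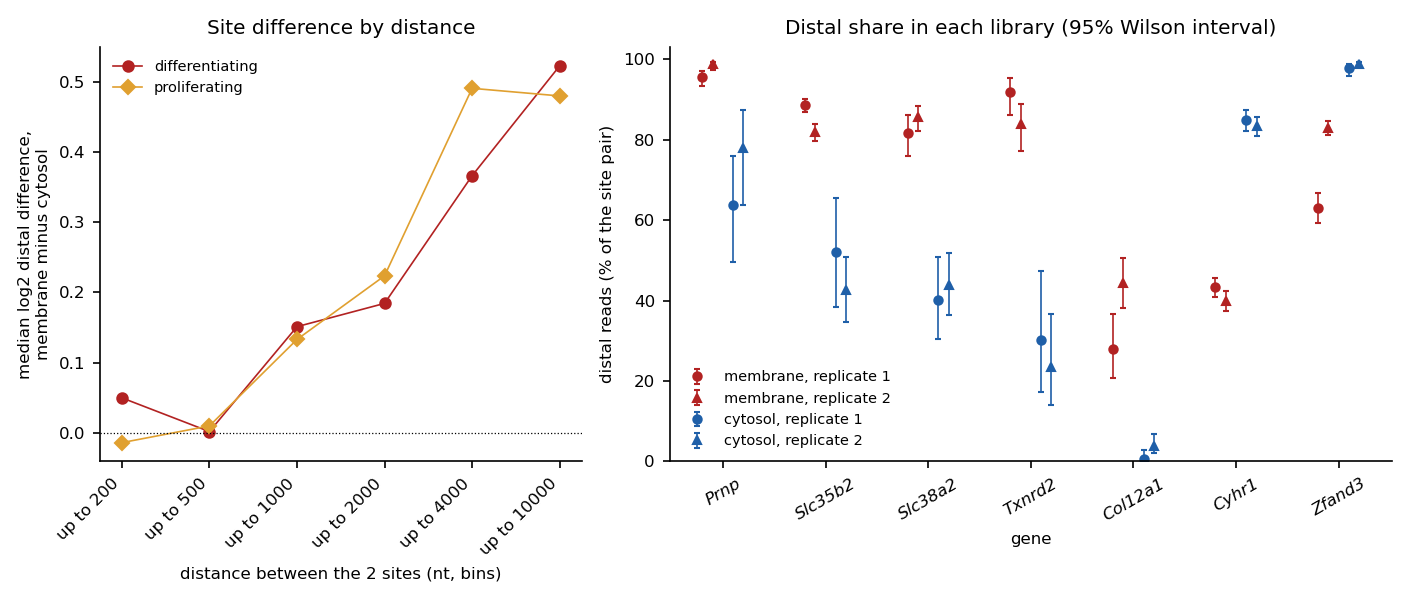
Left, median log2 difference in distal over proximal use, membrane minus cytosol (vertical axis), for pairs binned by the distance between sites in nt (horizontal axis), in differentiating (red) and proliferating (orange) polysomes; right, the distal share in percent of the pair's reads of 7 genes in each library, with 95% Wilson intervals that cover counting error only. In differentiating cells the medians are 0.05 and near 0 in the 2 shortest bins and 0.52 in the longest, and the distal share is higher in membrane libraries for Prnp to Col12a1 and lower for Cyhr1 and Zfand3.

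Pairs were also tested for a difference between cell states. With edgeR 0 of 4553 (0.0%) were called, 59 had an unadjusted p below 0.05, and the lowest adjusted p was 1. DESeq2 called 0. The pairs of lowest p varied in how far they matched between states. Prnp, Slc35b2 and Slc38a2 had log2 differences of 2.85, 3.08 and 3.32 in proliferating polysomes, against 3.90, 2.75 and 2.81 here. Tmem60 had 1.53 there and 2.43 here, and Fstl1 had -0.44 there and 3.19 here. The Fstl1 pair had only 15 and 31 reads in the cytosol libraries here. Among pairs with less distal use here, Sptlc2 had -3.46 there and -3.44 here. Sptlc2 had 0 proximal reads in the cytosol libraries of either state, with 4 and 10 distal reads here and 7 and 12 there. Its 2 values therefore rest on few reads, and their match says little. Alg5, Sumf1, Plod1 and B3gnt1 had -0.05, 0.68, -0.20 and -0.62 there. Here these 4 had -1.23, -4.07, -1.77 and -2.89. In the cytosol libraries here the pair had 9 and 20 reads for Sumf1, 17 and 17 for Plod1 and 12 and 20 for B3gnt1. The r over all pairs was 0.119.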

How the data were processed

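The values were whole-number read counts per poly(A) site and library, deposited by the authors as 1 table of 125369 sites under 17005 symbols, per the file headers. The submitters' processing notes name mm9, cutadapt, Bowtie2 and STAR 2.5.2, without their roles. Whether strand was used in counting, and whether duplicate reads were removed, is not given in the sources used here. Positions listed under more than 1 symbol (651, holding 0.176% of the reads of the 4 libraries) were left out, and sites were summed per symbol. The deposited RNA-seq libraries were not used here.

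Genes passing filterByExpr were fitted with edgeR 4.0.16 in R 4.3.3 (TMM, robust glmQLFit, glmQLFTest) over the 16 gradient libraries in 8 groups of 2, with Benjamini-Hochberg adjustment over all genes tested and a threshold of 0.05. A total of 2978 genes with a read in the 4 libraries were not tested. SE is the log2 value divided by the root of F. Site pairs were the 2 most used sites of a gene, at most 10 kb apart, with a mean of at least 10 reads per library and at least 5% in the rarer one, tested as isoform by group with a term per library. The first site along the strand is called proximal. Per-library medians used log2 of counts plus 1. DESeq2 1.42.0, its size factors, no filter, kept positions, only the groups compared, a replicate block and each library left out were alternatives. Both tests were checked on simulated data. Wilson intervals are at 95% and cover counting error only, and a gene with no read in a fraction was bounded at 3 reads per library.

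The members and gene lists were chosen with earlier results of these data known. Up to 5 genes per list (3 by level, 2 by p), up to 12 in each direction by size, up to 8 by p for each difference of differences, and the 5 pairs of lowest p in each direction could be named. The other genes named, the families by symbol and the pairs over 10 kb apart were chosen after their values were seen. A comparison of protein hydrophobic segment classes was planned and not run, as no protein table was used here. Some genes that these rules could name are not reported here.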

Additional observations from a re-analysis of the deposited data

Results flagged for a closer look

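The difference between membrane and cytosol was itself compared between polysomes and monosomes of cells labelled as differentiating, and edgeR's test of that difference called 406 genes with a larger and 52 with a smaller log2 value in polysomes. Among those with the lowest p, H47, an ER membrane selenoprotein of the degradation machinery, differed by 5.40, Lrpap1, an ER chaperone of lipoprotein receptors, by 5.18, and Sgcb by 5.13. Pdia6 differed by 4.57, Rpn1 by 4.41, Ppic, a secretory pathway cyclophilin, by 3.87, Manf by 3.80, Pigt by 3.76 and Tmed1, a p24 cargo receptor, by 3.59. In the other direction Rraga, a lysosomal GTPase, gave -2.70, Rab6a, a Golgi GTPase, -2.12, Mtpn, myotrophin, -1.99 and Sec22b -1.93. The calls of Rraga, Mtpn and Sec22b were lost when some single libraries were left out, and the 9 larger differences and Rab6a stayed called without each of the 8 libraries in turn. The medium label differs between these polysome and monosome libraries, and its part in the differences was not tested.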

How the results depend on the processing

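Leaving out 1 library of the 4 gave 947 to 1240 higher and 34 to 87 lower genes. The lower count was 345 with DESeq2's size factors, 661 with DESeq2's test and 12 when only the groups compared were fitted. For the difference from monosomes, DESeq2's test gave 658 higher and 132 lower, fitting only the groups compared 214 and 10, and leaving out 1 library 177 to 292 and 7 to 26. For site pairs DESeq2's test called 2 with more distal use, and no limit on distance 4 with more and 2 with less. The difference in library medians was 0.08 to 0.25 with a library left out. Signs turned for genes not called. With a library left out, Sec61b ranged from -2.54 to 1.36, Gm7325 from -0.74 to 1.68, Tmem38a from -0.17 to 3.50, Mylpf from -2.02 to 1.35, Tnnc1 from -2.93 to 1.06 and Myog from -1.47 to 1.43, which was 0.0137 when only the groups compared were fitted. A fit with a library left out leaves the replicate numbers unbalanced between fractions. The cause of the turned signs was not tested. Of the values compared, 1426 kept their direction and side of the threshold, 166 lost and 46 gained a call, and 10 turned. With a replicate block, 2497 genes were higher and 1865 lower, 4 and 47 differed from proliferating cells, 1382 and 707 from monosomes, and 27 pairs had more distal use; of muscle lists, 1 sarcomere gene was higher and 9 lower, 2 and 8 glycolysis genes, and 17 sarcoplasmic reticulum and 21 sarcolemma genes were higher. The labels do not say that a number pairs libraries; log2 CPM of replicate 1 minus 2 correlated between the fractions at r = 0.725 over genes and 0.416 over site pairs. The planned protein classes were not run. Few cytosol reads limit the folds of the genes most enriched on membranes and the distal shares of their pairs.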

Other observations

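Families defined by symbol were chosen after their values were seen, so their counts are a description and no test of the division. Of 12 tested integrin genes 6 were higher in membrane polysomes, of 20 Pig genes, which build and attach GPI anchors, 11, of 11 Alg genes, which build the N-glycan precursor, 6, and of 17 Zdhhc genes, which encode membrane-bound palmitoyltransferases, 7. None of these families had a gene called lower. Over all genes tested 13.1% were higher and 2.01% lower. Their median log2 differences were 2.83, 2.23, 2.42 and 1.54, against -0.08 over all genes tested. Rab GTPases, which reach the same membranes through lipid tails added after translation, had none higher and 1 lower of 45, with a median of -0.32. DESeq2 called 0 Rab genes higher and 5 lower, and edgeR gave 1 with a positive and 5 with a negative value at an unadjusted p below 0.05. Zinc finger genes named Zfp had 5 higher and 2 lower of 264 (median -0.01) and kinesins 2 higher of 30 (median 0.15).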
